A study of Mus musculus with 24 samples.

Results

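Integrins, laminins and nidogens form an adhesion module of 39 genes among the 54418 in the deposited tables. The members were taken by gene symbol, a choice made with earlier results of these data known. The set held 18 integrin alpha chains, 8 integrin beta chains, 5 laminin alpha chains, 3 laminin beta chains, 3 laminin gamma chains and both nidogens. They were measured by bulk RNA-seq in stromal cells sorted as negative for Epcam and CD45 from the small intestine (SI) and colon of C57Bl6 mice aged 8 to 12 weeks. The sort then split the cells by CD31, the endothelial surface protein that Pecam1 encodes, and by GFP from an Rspo3 transgene that all groups carried, the gene of a secreted amplifier of Wnt signalling. The 8 groups were therefore CD31+ Rspo3-, CD31+ Rspo3+, CD31- Rspo3- and CD31- Rspo3+ cells of each tissue, where Rspo3+ and Rspo3- stand for the GFP sign, with 3 libraries each and 24 in all. Nothing in the labels ties the 3 libraries of a group to different mice, and p-values therefore measure only the spread between libraries, which may be technical. Library numbers below follow the order of the columns in the tables and pair nothing across groups.

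Integrins are cell surface receptors made of an alpha and a beta chain, and the pair decides the ligand. The beta 1 chain joins many alpha chains into receptors for collagens, laminins and fibronectin, while the beta 4 chain joins only alpha 6 and binds laminin. Laminins are secreted trimers of an alpha, a beta and a gamma chain and build the basement membrane, and nidogens link the laminin network to collagen IV. In blood vessels the alpha 4 and alpha 5 chains are the main laminin alpha chains, and integrin alpha 9 is known for its part in lymphatic valves.

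Pecam1 lay at 161 to 702 TPM (transcript abundance scaled for transcript length and library size) in the 12 CD31+ libraries and at 6.11 to 16.7 TPM in the 12 CD31- libraries. Rspo3 lay at 51.7 to 230 TPM in the GFP+ libraries and at 5.06 to 13.1 TPM in the GFP- libraries. Total estimated counts per library ran from 8462041 to 29214487, with a median of 17881736. Library 3 of colonic CD31- Rspo3+ cells stood apart: its summed leukocyte markers reached 1327 TPM against 41.2 to 150 TPM in all other libraries, and its correlations with the other 2 libraries of its group, 0.927 and 0.918, were the lowest within any group. Library 3 of colonic CD31+ Rspo3- cells held fibroblast markers at 4738 TPM, against 752 and 927 TPM in its group. The small-intestinal CD31- Rspo3- libraries, sorted as Epcam-, held summed epithelial markers at 9555 to 17301 TPM, with Epcam itself at 502 to 764 TPM. The colonic CD31- Rspo3- libraries held summed epithelial markers at 1629 to 5146 TPM. In bulk libraries fewer cells of a type and less RNA per cell cannot be told apart.

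Of the 39 members, 38 passed the filter on low counts and were tested, and 30 reached 5 TPM as the mean of at least 1 group. Itgad was not tested: it lay at 0 to 0.136 TPM. Itga2, Itga10, Itgae, Itgal, Itgam, Itgax, Itga4 and Itgb8 were also below 5 TPM in every group mean. Itgb1, the shared beta chain, had the highest mean TPM of the integrin chains in every group, with group means from 239 to 448 TPM and single libraries between 192 and 548 TPM. Its level in the 12 CD31+ libraries spanned only 302 to 365 TPM. Exons that overlap another gene make some values uncertain, since the SMART-Seq kit of the labels' protocols does not mark strand: Itgam shares 68.7% of its exonic bases with Gm49368, Itga10 33.5% with Gm42957, Nid2 8.45% with Rtraf, Itga4 8.04% with Cerkl, Itgb4 7.66% with B230344G16Rik and Itgav 5.90% with Gm13684.

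**Figure D1:**
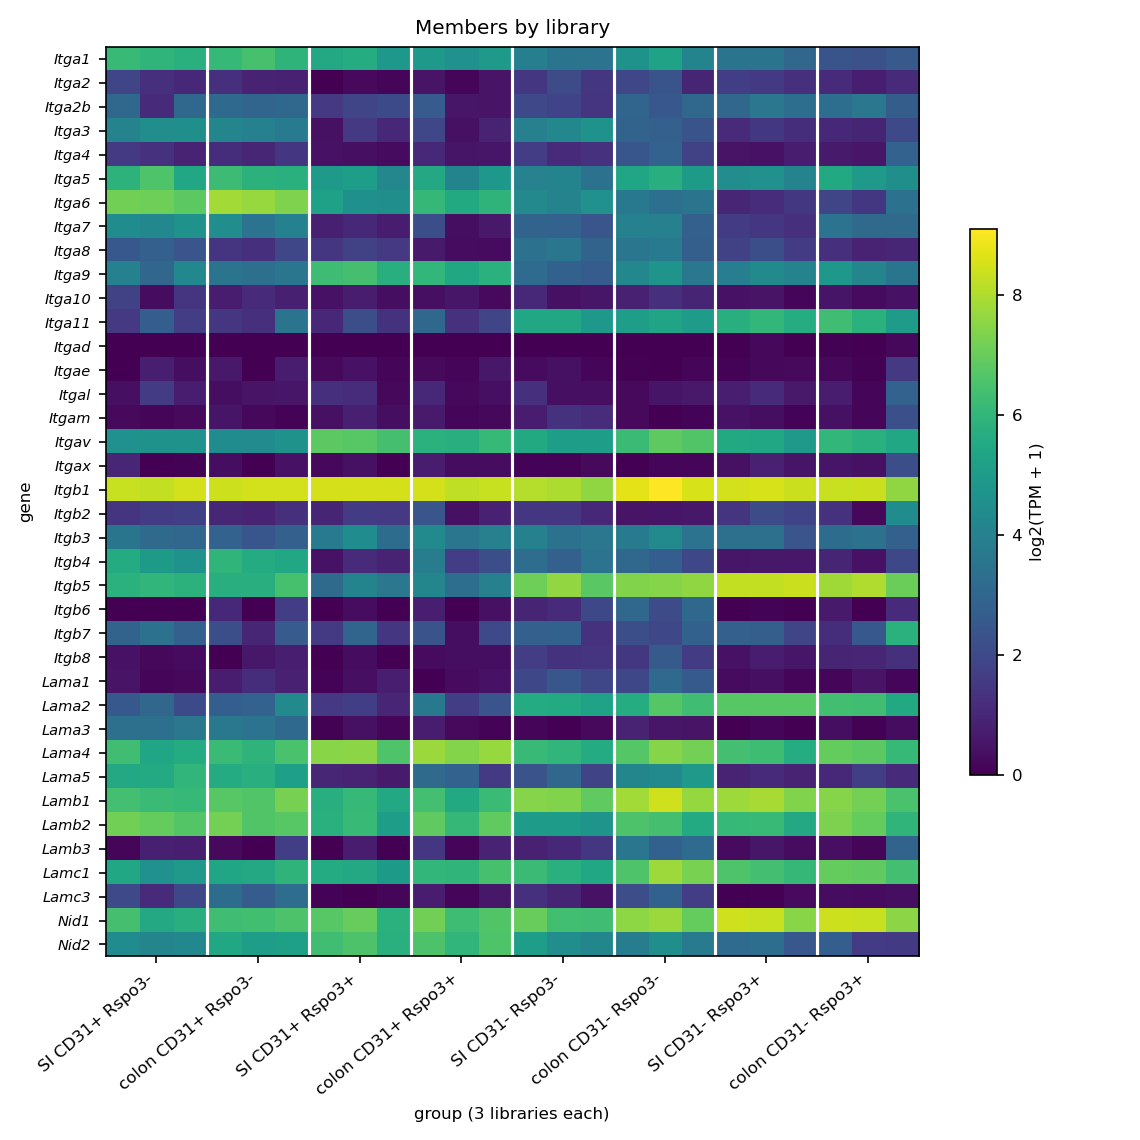
Heat map of the module by library: the lines are members grouped by chain class, each column a library grouped by tissue, CD31 and reporter sign, and the colour gives the TPM level on a log2(TPM + 1) scale. Itgb1 is high throughout, Itga6 is highest in the CD31+ Rspo3- libraries, and Lama2 and Itga11 are higher in each CD31- library than in any CD31+ library.

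The reporter comparison within CD31+ cells asks how endothelial cells with GFP from the Rspo3 transgene differ from those without GFP. Rspo3+ cells had less Lama5, Lama3, Lamc3, Itga6, Itgb4, Itga3, Itga7 and Itgb5 and more Itga9, Itgav, Lama4 and Nid2 in both tissues. By edgeR's quasi-likelihood test at an adjusted p under 0.05, 17 of 38 members changed in the small intestine, 4 higher and 13 lower, against 20.1% of all genes tested (9.23% higher and 10.8% lower). Colonic calls numbered 18, 6 higher and 12 lower, against 23.1% of all genes (9.52% higher and 13.6% lower). The median log2 fold change of the members was -0.61 against 0.00 for all genes in the small intestine, and -0.69 against -0.06 in the colon. The tissues share no library, and 15 members changed in the same direction in both, 88.2% of the small-intestinal and 83.3% of the colonic calls. Over all genes the same shares were 62.5% and 54.2%. Blood endothelial markers moved with these differences: their summed level was 13453 to 19422 TPM in the CD31+ Rspo3- libraries and 235 to 941 TPM in the CD31+ Rspo3+ libraries, and 8 of 8 were lower in each tissue. Lymphatic endothelial markers ran the other way, from 384 to 2107 TPM up to 6999 to 10759 TPM, with 8 of 8 higher in each tissue. Of 8 pericyte markers 6 were lower and 2 higher in small-intestinal Rspo3+ cells, where their sum was 204 to 283 TPM in Rspo3- and 221 to 267 TPM in Rspo3+ libraries. In colonic Rspo3+ cells 7 were lower and 1 higher, and the sum was 241 to 413 TPM against 63.8 to 72.8 TPM. Of 8 smooth muscle markers 6 were lower and 1 higher in the small intestine, at a sum of 613 to 1110 TPM against 471 to 617 TPM. The colonic count was 7 lower and 1 higher, at 613 to 1024 TPM against 274 to 431 TPM. Their part in the member differences was not tested.

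Windows before RefSeq starts are shown for 3 members that differed by reporter, because the same sort moved them in different ways. Itga9 was higher in CD31+ Rspo3+ cells and Lama5 lower in both CD31 classes. Itgb5 was lower among CD31+ cells but higher among small-intestinal CD31- cells. Each window is the 250 bases before the start in RefSeq on GRCm38.p6, written 5′ to 3′ on the strand of the gene. Itga9 is at chr9:118711442-118711691 on the plus strand, Itgb5 at chr16:33829415-33829664 on the plus strand and Lama5 at chr2:180225860-180226109 on the minus strand. The Itga9 start used by RefSeq lies far inside the GENCODE gene, chr9:118606690-118901003, and not at its start. The Itga9 window therefore says nothing about the sequence before the GENCODE start. Capitals mark matches on either strand to the core of ETS factor sites, CGGAAG or CTTCCG, and to the GC box, GGGCGG or CCGCCC.
Itga9: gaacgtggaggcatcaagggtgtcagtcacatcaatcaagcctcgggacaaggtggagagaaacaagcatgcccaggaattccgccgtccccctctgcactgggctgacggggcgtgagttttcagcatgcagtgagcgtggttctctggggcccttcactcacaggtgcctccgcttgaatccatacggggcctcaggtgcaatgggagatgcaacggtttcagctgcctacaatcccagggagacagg
Itgb5: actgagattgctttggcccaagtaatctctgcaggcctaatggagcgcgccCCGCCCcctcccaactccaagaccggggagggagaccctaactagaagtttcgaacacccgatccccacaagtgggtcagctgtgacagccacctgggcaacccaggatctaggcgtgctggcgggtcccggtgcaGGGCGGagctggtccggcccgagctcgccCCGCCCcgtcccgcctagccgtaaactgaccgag
Lama5: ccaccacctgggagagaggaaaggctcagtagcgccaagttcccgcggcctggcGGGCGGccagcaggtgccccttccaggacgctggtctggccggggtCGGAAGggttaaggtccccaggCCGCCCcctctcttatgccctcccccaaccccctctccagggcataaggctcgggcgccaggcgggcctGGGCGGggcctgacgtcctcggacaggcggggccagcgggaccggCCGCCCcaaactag
The Lama5 window held 1 ETS core and 4 GC boxes, the Itgb5 window 3 GC boxes, and the Itga9 window neither. The GC content of the windows was 72.4% for Lama5, 65.2% for Itgb5 and 58.4% for Itga9. Among all 32851 RefSeq windows of this length, 13.6% held the ETS core and 32.7% a GC box, and among the 27 starts of the 24 members in the table the shares were 11.1% and 37.0%. Lama3, Lama1, Itgb3, Itgb2, Itga6, Lamc1, Itgb4, Lamc3, Itgae, Lama4, Itgal, Nid2, Itga7 and Itgad, were not matched. A match is a run of letters and not a binding site.

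Among integrin alpha chains, Itga9 (chr9:118606690-118901003, plus strand), a receptor chain for tenascin C and the EDA form of fibronectin, showed the clearest rise. Its small-intestinal level was 14.8, 6.94 and 18.2 TPM in Rspo3- libraries and 76.8, 84.9 and 52.4 TPM in Rspo3+ libraries. Colonic libraries held 9.38 to 10.3 TPM in 2 Rspo3- libraries and 11 TPM in the third, against 64.7, 43.4 and 55.5 TPM. The groups did not overlap in either tissue, and the log2 fold changes of the counts were 2.33 ± 0.26 (SE, n = 3 libraries a group, edgeR adjusted p = 1.3e-06) and 2.49 ± 0.26 (edgeR adjusted p = 5.88e-07). Itgav (chr2:83724397-83806916, plus strand), the alpha chain of the RGD-binding integrins, rose as well. It went from 23.4, 24.8 and 24.6 TPM to 111, 104 and 84.9 TPM in the small intestine (log2 fold change 2.14 ± 0.29, edgeR adjusted p = 1.58e-05). Colonic levels went from 20.5, 19.8 and 24.3 TPM to 55.6, 52.0 and 67.4 TPM (1.54 ± 0.28, edgeR adjusted p = 0.000411). All 6 Rspo3+ libraries lay above all 6 Rspo3- libraries for both genes.

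Laminin-binding alpha chains fell. Itga6 (chr2:71745616-71858416, plus strand), which pairs with beta 1 or beta 4, was at 141, 137 and 111 TPM in small-intestinal Rspo3- libraries and at 36.1, 22.8 and 22.4 TPM in Rspo3+ libraries. Colonic levels were 227, 204 and 160 TPM against 66.0, 44.6 and 59.2 TPM. The groups were apart in both tissues, with log2 fold changes of -2.15 ± 0.41 (edgeR adjusted p = 0.00064) and -1.74 ± 0.40 (edgeR adjusted p = 0.0033). Itga3, a chain of a laminin receptor of epithelia and vessels, was at 15.7, 21.8 and 22.1 TPM against 0.335, 1.82 and 1.00 TPM in the small intestine. The colonic values were 16.5, 14.9 and 12.4 TPM against 2.87, 0.336 and 0.881 TPM. Itga7, best known as a laminin receptor of muscle, was at 18.1 to 23.9 TPM against 0.623 to 1.01 TPM in the small intestine and at 10.1 to 20.8 TPM against 0.279 to 3.57 TPM in the colon. The log2 fold changes were -4.11 ± 0.63 and -3.39 ± 0.61 for Itga3, and -4.89 ± 0.76 and -3.44 ± 0.71 for Itga7. Single libraries moved these sizes: without small-intestinal CD31+ Rspo3+ library 2 Itga3 came to -4.87, and without colonic CD31+ Rspo3+ library 1 Itga3 came to -4.37 and Itga7 to -5.22.

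The remaining alpha chains changed less or at lower levels. Itga8, a receptor chain for nephronectin that is typical of smooth muscle and pericytes, fell by 1.31 ± 0.35 in the small intestine and by 2.72 ± 0.38 in the colon on the log2 scale. Its levels were low in these cells, at most 5.86 TPM, and without colonic CD31+ Rspo3- library 3 the colonic value was -2.13. Itga1, a collagen receptor chain, went from 67.6, 86.4 and 59.95 TPM to 28.8, 23.0 and 29.3 TPM in the colon (log2 fold change -1.32 ± 0.20, edgeR adjusted p = 6.83e-05). Small-intestinal Itga1 was at 69.4, 61.3 and 54.2 TPM against 43.7, 48.8 and 27.6 TPM, and its call (-0.64 ± 0.20, edgeR adjusted p = 0.0292) was lost without CD31+ Rspo3- library 1 (adjusted p in brackets here and below, 0.097), CD31+ Rspo3- library 2 (0.0528) or CD31+ Rspo3+ library 3 (0.155), with no filter (0.0572) and with only the compared libraries (0.0543). Itga5, the fibronectin receptor chain, fell by 1.22 ± 0.31 and 1.09 ± 0.30. That call ended in the small intestine without CD31+ Rspo3- library 2 (adjusted p = 0.0615) and in the colon without CD31+ Rspo3- library 1 (0.0573) or CD31+ Rspo3+ library 2 (0.0771). Itga2, a collagen receptor chain, was at 1.07 to 2.72 TPM against 0 to 0.173 TPM in the small intestine (-3.17 ± 0.69), a value that ran from -2.48 without CD31+ Rspo3+ library 1 to -4.38 without library 2, and the call was lost when only the compared libraries were fitted (adjusted p = 0.0707).

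**Figure D2:**
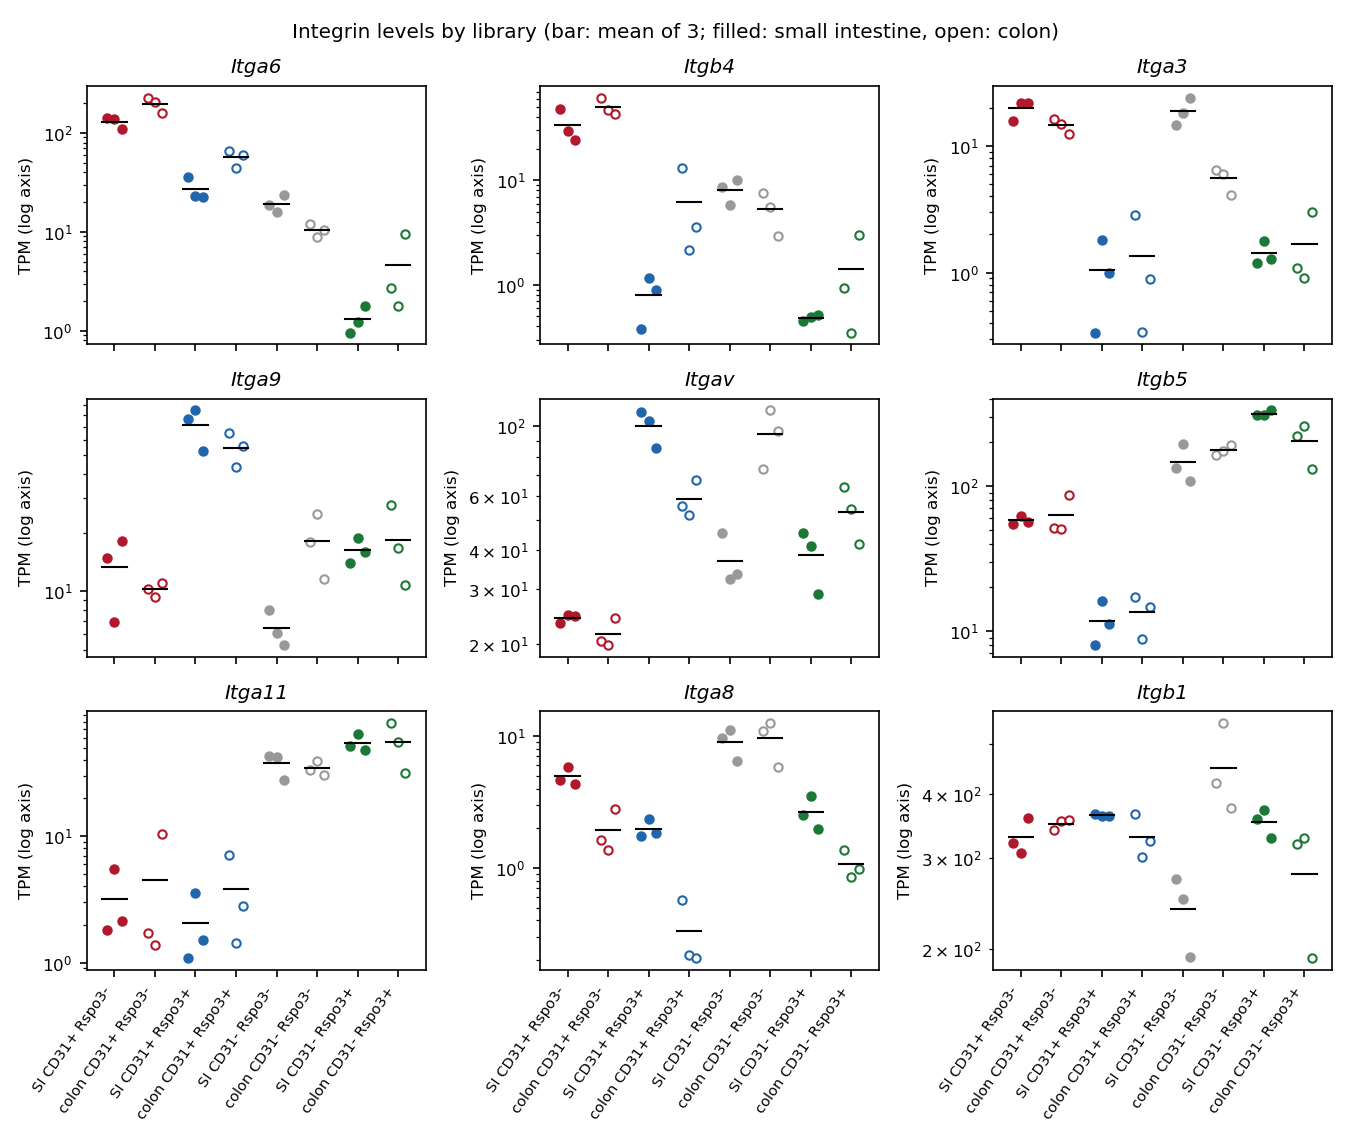
TPM of selected integrin chains in each library on a log axis, with filled points for the small intestine, open points for the colon and a bar at the mean of 3 libraries, over the 8 groups. Itga9 and Itgav are higher and Itga6, Itgb4 and Itgb5 lower in CD31+ Rspo3+ than in CD31+ Rspo3- libraries of both tissues.

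Of the beta chains, Itgb4 and Itgb5 fell in both tissues. Itgb4 (chr11:115974709-116008412, plus strand), the partner of alpha 6 in hemidesmosomes, was at 47.9, 30.0 and 24.6 TPM in small-intestinal Rspo3- libraries and at 0.376, 1.15 and 0.886 TPM in Rspo3+ libraries. The colonic values were 61.7, 47.0 and 42.8 TPM against 13.03, 2.17 and 3.55 TPM. No library of either Rspo3+ group reached its Rspo3- group, and the log2 fold changes were -5.33 ± 0.74 (edgeR adjusted p = 2.25e-05) and -3.06 ± 0.65 (edgeR adjusted p = 0.00156), the latter -4.02 without colonic CD31+ Rspo3+ library 1. Itgb5 (chr16:33829665-33949338, plus strand), an alpha v partner that binds vitronectin, was at 54.9, 62.4 and 56.9 TPM against 7.95, 16.2 and 11.1 TPM in the small intestine. Colonic Itgb5 was at 51.3, 50.7 and 86.7 TPM against 17.1, 8.81 and 14.5 TPM. It thus fell while Itgav rose, by 1.96 ± 0.26 (edgeR adjusted p = 1.37e-05) and 2.03 ± 0.26 (edgeR adjusted p = 8.02e-06) on the log2 scale. Itgb3, another alpha v partner, rose in the colon from 6.22, 4.42 and 5.93 TPM to 19.6, 10.8 and 14.6 TPM (1.44 ± 0.31, edgeR adjusted p = 0.00179). Small-intestinal Itgb3 was at 10.5, 7.91 and 6.94 TPM against 12.7, 20.4 and 8.20 TPM, groups that overlapped (0.77, edgeR adjusted p = 0.0859). The Itgb1 differences missed the threshold in both tissues (0.22, edgeR adjusted p = 0.303 and -0.06, edgeR adjusted p = 0.798). As a share of all integrin beta TPM, Itgb1 made up 92.1% ± 3.11 (SD, n = 3) in small-intestinal and 89.6% ± 3.48 in colonic Rspo3+ cells, against 74.9% ± 3.41 and 73.8% ± 3.10 in Rspo3- cells.

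Of the laminin alpha chains, Lama5 and Lama3 fell and Lama4 rose in both tissues. Lama5 (chr2:180176373-180225859, minus strand), a main alpha chain of vessel basement membranes, was at 44.2, 46.0 and 62.2 TPM in small-intestinal Rspo3- libraries and at 0.951, 0.829 and 0.579 TPM in Rspo3+ libraries. Colonic Lama5 was at 47.6, 50.6 and 34.1 TPM against 7.79, 6.29 and 1.91 TPM. The groups stood far apart in both tissues, with log2 fold changes of -5.77 ± 0.43 (edgeR adjusted p = 1.05e-08) and -3.04 ± 0.37 (edgeR adjusted p = 3.92e-06). The small-intestinal Rspo3+ value rested on 39, 9 and 3 counts and came to -6.80 without library 1 of that group. The difference between the tissues, 2.73 ± 0.52 on the log2 scale, passed the interaction test (edgeR adjusted p = 0.00624), and it was 3.76 without that library. Lama5 was the only member to pass it among CD31+ cells, against 1.93% of all genes (0.64% higher and 1.29% lower in the colon).

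Lama4 (chr10:38965515-39110188, plus strand), the other main alpha chain of vessels, rose in both tissues. It was at 77.4, 39.3 and 46.9 TPM against 177, 181 and 95.0 TPM in the small intestine (1.51 ± 0.29, edgeR adjusted p = 0.000689). Colonic Lama4 was at 73.6, 59.9 and 89.5 TPM against 211, 170 and 208 TPM (1.32 ± 0.29, edgeR adjusted p = 0.00201). Every Rspo3+ library lay above every Rspo3- library of its tissue. Lama4 accordingly made up 98.0% ± 0.391 (SD, n = 3) of laminin alpha TPM in small-intestinal and 94.4% ± 2.89 in colonic Rspo3+ cells, against 44.5% ± 10.7 and 52.9% ± 6.18 in Rspo3- cells. Lama5 made up 42.7% ± 9.17 and 32.1% ± 8.70 in Rspo3- cells, and 0.524% ± 0.0732 and 2.59% ± 1.48 in Rspo3+ cells. Lama3, an alpha chain best known from epithelial basement membranes, followed Lama5: it was at 9.29, 9.16 and 11.3 TPM against 0.0461, 0.330 and 0.115 TPM in the small intestine. Colonic Lama3 was at 11.4, 10.1 and 7.73 TPM against 0.631, 0.170 and 0.0747 TPM. Its log2 fold changes were -5.71 ± 0.85 and -5.42 ± 0.82, or -6.32 without small-intestinal CD31+ Rspo3+ library 2 and -6.43 without colonic CD31+ Rspo3+ library 1. Lama1 and Lama2 did not pass the test among CD31+ cells.

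**Figure D3:**
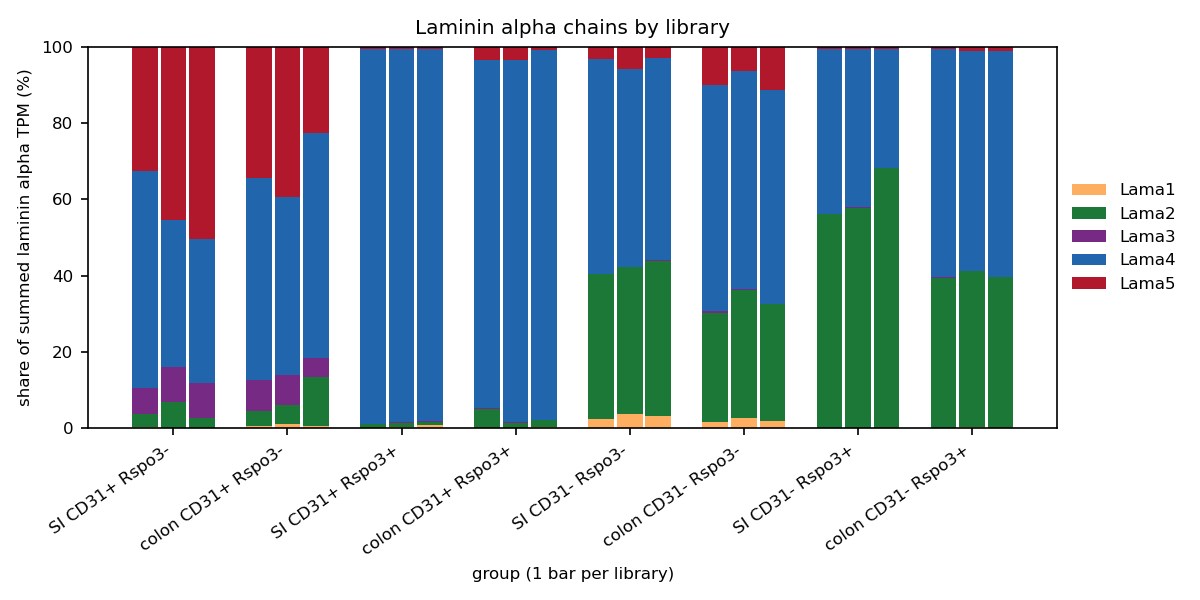
Share of each laminin alpha chain in the summed laminin alpha TPM, in percent, with 1 stacked bar per library and 3 bars per group. Lama4 makes up on average 98.0% and 94.4% of the total in CD31+ Rspo3+ cells of the small intestine and colon, Lama5 averages 42.7% and 32.1% in CD31+ Rspo3- cells, and Lama2 is larger in each CD31- bar than in any CD31+ bar.

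Beta and gamma chains of laminin changed in fewer cases. Lamb2, a beta chain of vessel and muscle laminins, was at 142, 124 and 99.9 TPM against 54.4, 68.9 and 32.4 TPM in the small intestine (-1.26 ± 0.28, edgeR adjusted p = 0.00244), and at 97.0 to 146 TPM against 65.0 to 117 TPM in the colon, where it did not pass (-0.21, edgeR adjusted p = 0.634). Lamb1, the other main beta chain, was called only in the colon (-0.82 ± 0.23, edgeR adjusted p = 0.0136), a call lost without CD31+ Rspo3+ library 2 (0.0865) or CD31+ Rspo3- library 3 (0.103). Lamc1, the common gamma chain, was called in neither tissue. Lamc3, a gamma chain of low level here, was at 1.18 to 3.02 TPM against 0 to 0.0894 TPM in the small intestine (-5.55 ± 1.02, edgeR adjusted p = 0.000455, and -4.92 without CD31+ Rspo3+ library 2), and at 8.30, 5.19 and 8.60 TPM against 0.629, 0.117 and 0.490 TPM in the colon (-4.20 ± 0.87, edgeR adjusted p = 0.00129). Lamb3, a beta chain of epithelial basement membranes, lay at 0.106 to 1.69 TPM in the colonic Rspo3+ libraries.

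Nid2 (chr14:19751265-19811787, plus strand) rose among CD31+ cells. It was at 20.3, 16.8 and 17.8 TPM against 78.7, 93.8 and 53.8 TPM in the small intestine, with no overlap (2.15 ± 0.29, edgeR adjusted p = 1.88e-05). Colonic Nid2 was at 42.0, 32.8 and 35.3 TPM against 92.8, 62.7 and 95.3 TPM, again with no overlap (1.25 ± 0.29, edgeR adjusted p = 0.00304). Nid1 was called in neither tissue (0.70, edgeR adjusted p = 0.116 and 0.33, edgeR adjusted p = 0.477). Nid2 thus made up 44.8% ± 3.79 (SD, n = 3) and 44.7% ± 4.72 of nidogen TPM in Rspo3+ cells, against 24.03% ± 4.30 and 30.4% ± 3.87 in Rspo3- cells.

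Genes that work with the module were read from 4 lists. In this comparison 20.1% of all genes were called in the small intestine (9.23% higher and 10.8% lower). The colonic share was 23.1% (9.52% higher and 13.6% lower). Of 16 basement membrane partners, 1 was higher and 4 were lower in small-intestinal CD31+ Rspo3+ cells, and 2 were higher and 5 lower in the colon. Col15a1, the collagen XV chain, fell by 4.51 and 3.81 on the log2 scale, Fbln2, which binds nidogens and laminins, by 3.73 and 2.34, and the matricellular gene Sparc by 2.72 and 2.71. A list of 8 genes held laminin and nidogen receptors other than integrins, and also the netrin Ntn4 and the netrin receptor Unc5b. Of these 8, 1 was higher and 4 lower in the small intestine and 2 were higher and 2 lower in the colon. Bcam, a surface receptor for the laminin alpha 5 chain, fell with Lama5, by 5.90 and 4.18, and Ntn4, a netrin that binds laminin gamma chains, fell by 2.67 and 1.22. Of 18 integrin ligands outside the laminins, 4 were higher and 6 lower in the small intestine, and 2 were higher and 9 lower in the colon. Madcam1, the alpha 4 beta 7 ligand on vessels, fell by 7.64 and 5.66, the latter -6.83 without colonic CD31+ Rspo3+ library 1, and Emilin1, a ligand of alpha 9 beta 1, was 2.32 higher in the small intestine. Of 25 integrin adaptors, 5 were higher and 5 lower in the small intestine and 4 were higher and 7 lower in the colon. The PINCH genes split, with Lims2 lower by 5.86 and 4.71 and Lims1 higher by 1.32 and 1.26.

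**Figure D4:**
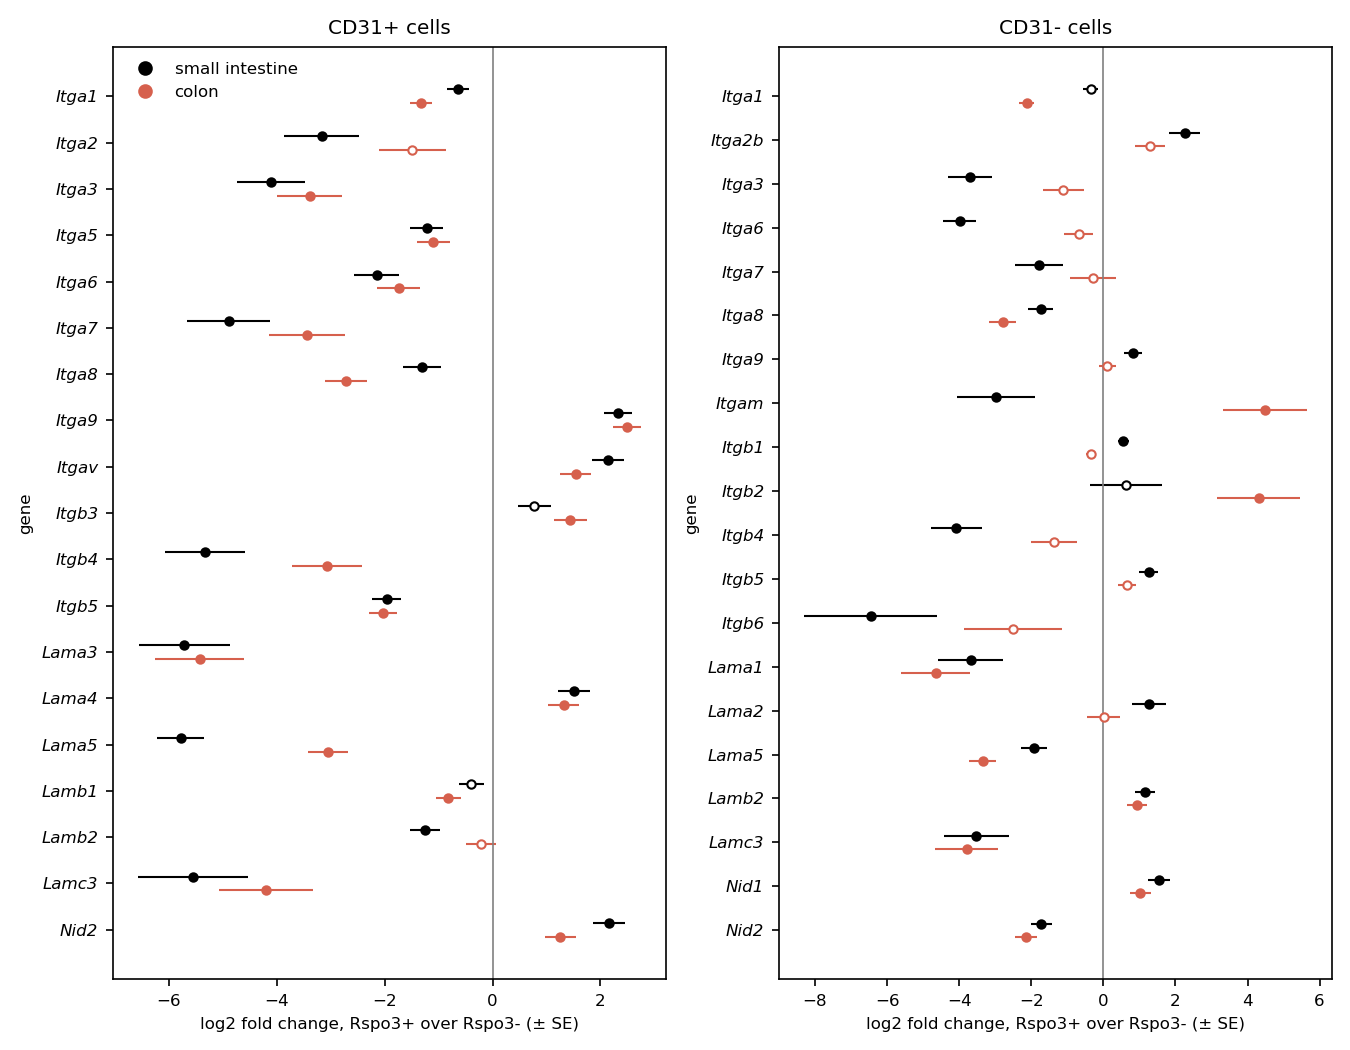
Log2 fold change of the counts, Rspo3+ against Rspo3-, for members called in at least 1 tissue, in CD31+ cells (left) and CD31- cells (right), with SE bars; filled points passed edgeR's adjusted p under 0.05 and open points did not. Lama5, Lamc3 and Itga8 have filled points below 0 in all 4 comparisons, while Nid2 lies above 0 in CD31+ and below 0 in CD31- cells.

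The reporter comparison within CD31- cells contrasts stromal cells with and without Rspo3 GFP. Rspo3+ cells had less Lama5, Lama1, Lamc3, Itga8 and Nid2 and more Nid1 and Lamb2 in both tissues. Of 38 members 19 changed in the small intestine, 8 higher and 11 lower, against 30.4% of all genes (16.1% higher and 14.3% lower). Colonic calls numbered 11, 5 higher and 6 lower, against 9.14% of all genes (4.8% higher and 4.34% lower). The median log2 fold change of the members was -0.34 against 0.11 for all genes in the small intestine and -0.40 against 0.00 in the colon. With DESeq2 size factors the median of all genes in the small intestine was 0 and the split was 6 higher and 13 lower. The same direction was called in both tissues for 8 members, 42.1% of the small-intestinal and 72.7% of the colonic calls, while Itgam went in opposite directions. Over all genes the shares were 17.4% and 57.9%. The test of the difference between the tissues was passed by 5 members, against 8.38% of all genes: the colonic value was higher for Itga3, Itga6 and Itgam (4.91% of all genes) and lower for Itga1 and Itgb1 (3.48%).

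Other cell types moved with these groups. Summed fibroblast markers were at 6188 to 10102 TPM in small-intestinal Rspo3- libraries against 48510 to 49592 TPM in Rspo3+ libraries, with 7 of 8 higher. Summed epithelial markers were at 9555 to 17301 TPM against 110 to 338 TPM, with 10 of 10 lower, and summed mesothelial markers at 219 to 469 TPM against 1.22 to 17.5 TPM. Colonic epithelial sums were 1629 to 5146 TPM in Rspo3- against 45.5 to 1509 TPM in Rspo3+ libraries, with 1 of 10 markers called lower. Colonic mesothelial sums were 304 to 1136 TPM against 7.15 to 317 TPM, with 0 of 5 markers called. Enteric glial markers fell as well: 6 of 7 were lower in small-intestinal and 5 of 7 in colonic Rspo3+ cells. Of 8 pericyte markers 4 were lower in small-intestinal and 6 in colonic Rspo3+ cells, at summed levels of 130 to 206 TPM against 167 to 187 TPM and of 169 to 287 TPM against 52.7 to 74.8 TPM. Pan-endothelial markers were higher for 8 of 10 in each tissue and lower for 1 in the small intestine. Their sum was at most 68.7 TPM in Rspo3- and 147 TPM in Rspo3+ libraries. Of 8 lymphatic markers 7 were higher in small-intestinal and 5 in colonic Rspo3+ cells, and 0 lower. Of 8 blood endothelial markers 4 were higher in each tissue, and 1 was lower in the small intestine. In the colon summed smooth muscle markers were at 2676 to 3902 TPM in Rspo3- libraries against 343 to 618 TPM in Rspo3+ libraries, with 8 of 8 lower, and 8 of 11 leukocyte markers were higher. Their part in the member differences was not tested.

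Laminin-binding chains fell in small-intestinal CD31- Rspo3+ cells. Itga6 was at 18.7, 15.7 and 23.5 TPM in Rspo3- libraries and at 0.959, 1.24 and 1.79 TPM in Rspo3+ libraries, with no overlap (-3.98 ± 0.46, edgeR adjusted p = 2.49e-06). Itga3 was at 14.6, 18.1 and 24.1 TPM against 1.20, 1.76 and 1.29 TPM (-3.69 ± 0.61, edgeR adjusted p = 0.000126). Itgb4, their hemidesmosomal neighbour, was at 8.57, 5.87 and 10.1 TPM against 0.447, 0.488 and 0.519 TPM (-4.08 ± 0.70, edgeR adjusted p = 0.000196). These 3 genes are also typical of epithelium, whose markers fell in the same libraries, and the part of epithelial cells was not tested. In the colon none of the 3 passed the test: Itga6 was at 11.9, 8.92 and 10.4 TPM against 2.72, 1.80 and 9.46 TPM (-0.69, edgeR adjusted p = 0.334), groups that overlapped through Rspo3+ library 3 alone. Itga6 passed the test of the difference between tissues (3.29 ± 0.59, edgeR adjusted p = 0.0016, and 2.20 without colonic CD31- Rspo3+ library 3).

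Of the other alpha chains, Itga8 fell in both tissues, from 9.70, 11.02 and 6.41 TPM to 2.51, 3.52 and 1.98 TPM in the small intestine (-1.74 ± 0.35, edgeR adjusted p = 0.00078). Colonic Itga8 fell from 10.8, 12.5 and 5.80 TPM to 1.36, 0.848 and 0.977 TPM (-2.79 ± 0.37, edgeR adjusted p = 6.5e-05). Itga1 fell in the colon, from 16.4 to 36.9 TPM down to 4.15, 3.78 and 4.82 TPM (-2.12 ± 0.21, edgeR adjusted p = 3.16e-06). Small-intestinal Itga1 lay at 10.2 to 14.2 TPM against 6.93 to 10.3 TPM (-0.35, edgeR adjusted p = 0.211), and the tissues differed (-1.77 ± 0.29, edgeR adjusted p = 0.000657). Itga2b, known as the platelet fibrinogen receptor chain, rose in the small intestine from 2.99, 2.52 and 1.58 TPM to 7.06, 11.1 and 8.79 TPM (2.26 ± 0.44, edgeR adjusted p = 0.000543). The summed other platelet markers were at 5.11 to 11.7 TPM in those Rspo3- libraries and at 3.83 to 9.77 TPM in the Rspo3+ libraries. Of the 5 markers summed, 4 had means under 1 TPM in each of these groups and only 1 was tested, so the sum is a weak measure. Itga9 was called higher in the small intestine (0.83 ± 0.25, edgeR adjusted p = 0.0143), a call lost without CD31- Rspo3- library 2 (0.0907), CD31- Rspo3- library 3 (0.0768) or CD31- Rspo3+ library 2 (0.0587). Itga7 fell there by 1.78 (edgeR adjusted p = 0.0474), a call lost without any of the 6 libraries in turn, at adjusted p from 0.0705 (without CD31- Rspo3- library 3) to 0.108 (without CD31- Rspo3+ library 1).

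Itgb5 was the second most abundant integrin beta chain of CD31- cells. It rose in the small intestine from 134, 196 and 108 TPM to 308, 309 and 332 TPM, with no overlap (1.25 ± 0.25, edgeR adjusted p = 0.000825). Colonic Itgb5 was at 164, 174 and 190 TPM against 222, 260 and 131 TPM, and the groups overlapped through Rspo3+ library 3 (0.65, edgeR adjusted p = 0.114). Itgb1 was called higher in the small intestine, from 273, 250 and 193 TPM to 358, 372 and 328 TPM (0.56 ± 0.14, edgeR adjusted p = 0.00494), a call lost without CD31- Rspo3+ library 3 (0.0531) or with only the compared libraries (0.0699). Itgb6, an epithelial partner of alpha v, was at 188 summed counts in the Rspo3- libraries and 2 in the Rspo3+ libraries, a ratio of 101 with a 95% counting interval of 27.6 to 841. That call was lost without CD31- Rspo3+ library 1 (adjusted p = 0.0573) or library 3 (0.0554).

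Leukocyte integrins stood out in a single colonic library. In CD31- Rspo3+ cells Itgb7 was at 1.31, 4.70 and 55.8 TPM, Itgb2 at 1.44, 0.144 and 20.3 TPM and Itgam at 0.339, 0.126 and 3.67 TPM, with the high value of each in library 3, where the leukocyte markers were also high. Itgb2 (4.31, edgeR adjusted p = 0.0213) and Itgam (4.48, edgeR adjusted p = 0.019) were called higher in Rspo3+ cells, but without that library the values were 1.00 (adjusted p = 0.542) and 1.66 (adjusted p = 0.319). The Itgb2 call was also lost without any single CD31- Rspo3- library (0.0749 to 0.0826), and the Itgam call without CD31- Rspo3- library 2 (0.0817) or library 3 (0.0863). Small-intestinal Itgam was called lower (-2.98, edgeR adjusted p = 0.0411), a call lost without CD31- Rspo3- library 2 (0.0854), CD31- Rspo3- library 3 (0.0964), CD31- Rspo3+ library 1 (0.128) or CD31- Rspo3+ library 3 (0.129).

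Laminin chains of CD31- cells changed in mixed directions. Lama5 fell from 4.04, 6.98 and 2.62 TPM to 0.855, 1.17 and 0.847 TPM in the small intestine (-1.92 ± 0.37, edgeR adjusted p = 0.000509). Colonic Lama5 fell from 17.1, 19.2 and 29.2 TPM to 1.05, 2.20 and 1.17 TPM (-3.35 ± 0.38, edgeR adjusted p = 1.55e-05). Lama1, an alpha chain of embryonic and epithelial basement membranes, fell by 3.69 ± 0.90 and 4.65 ± 0.95, from 2.79 to 4.36 TPM and 2.92 to 7.73 TPM in Rspo3- libraries to at most 0.378 TPM in Rspo3+ libraries. Lamc3 fell by 3.53 ± 0.90 and 3.79 ± 0.87, and its small-intestinal value ran from -2.92 without CD31- Rspo3+ library 1 to -6.28 without library 3. Lama2, the main alpha chain of connective tissue and muscle, was at 47.5, 46.1 and 36.5 TPM against 107, 106 and 106 TPM in the small intestine. The libraries did not overlap in TPM, but the count test was near its threshold (1.27 ± 0.47, edgeR adjusted p = 0.0444) and the call was lost without any of the 6 libraries in turn (0.0695 without CD31- Rspo3- library 1 to 0.133 without CD31- Rspo3- library 3) and with DESeq2 size factors (0.071). In the colon Lama2 was at 48.9, 102 and 79.1 TPM against 80.7, 78.8 and 44.6 TPM (0.01, edgeR adjusted p = 1).

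Lamb2 rose in the small intestine, from 31.9, 31.8 and 25.1 TPM to 66.7, 69.5 and 44.3 TPM (1.16 ± 0.28, edgeR adjusted p = 0.00333). Its colonic call (0.92, edgeR adjusted p = 0.0401) was lost without CD31- Rspo3+ library 1 (0.223) or library 2 (0.0702) and without CD31- Rspo3- library 2 (0.0982) or library 3 (0.188).

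The nidogens parted among CD31- cells. Nid1 (chr13:13437551-13512269, plus strand) rose in the small intestine from 127, 80.8 and 78.6 TPM to 343, 318 and 178 TPM (1.55 ± 0.31, edgeR adjusted p = 0.000679). Colonic Nid1 was at 187, 214 and 122 TPM against 335, 322 and 184 TPM, and its call (1.03, edgeR adjusted p = 0.0378) was lost with only the compared libraries (0.0516) and without every library but CD31- Rspo3+ library 3, at adjusted p from 0.0642 (without CD31- Rspo3- library 2) to 0.167 (without CD31- Rspo3- library 3). Nid2 fell in both tissues, from 32.8, 21.2 and 17.3 TPM to 8.01, 8.77 and 4.50 TPM (-1.73 ± 0.29, edgeR adjusted p = 0.00016). Colonic Nid2 fell from 13.1, 22.0 and 12.6 TPM to 5.59, 2.06 and 1.92 TPM (-2.14 ± 0.30, edgeR adjusted p = 0.000139). The Rspo3+ and Rspo3- libraries of each tissue did not overlap for Nid2. Its share of nidogen TPM was 2.48% ± 0.200 (SD, n = 3) and 1.10% ± 0.507 in Rspo3+ cells, against 19.8% ± 1.53 and 8.41% ± 1.60 in Rspo3- cells.

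**Figure D5:**
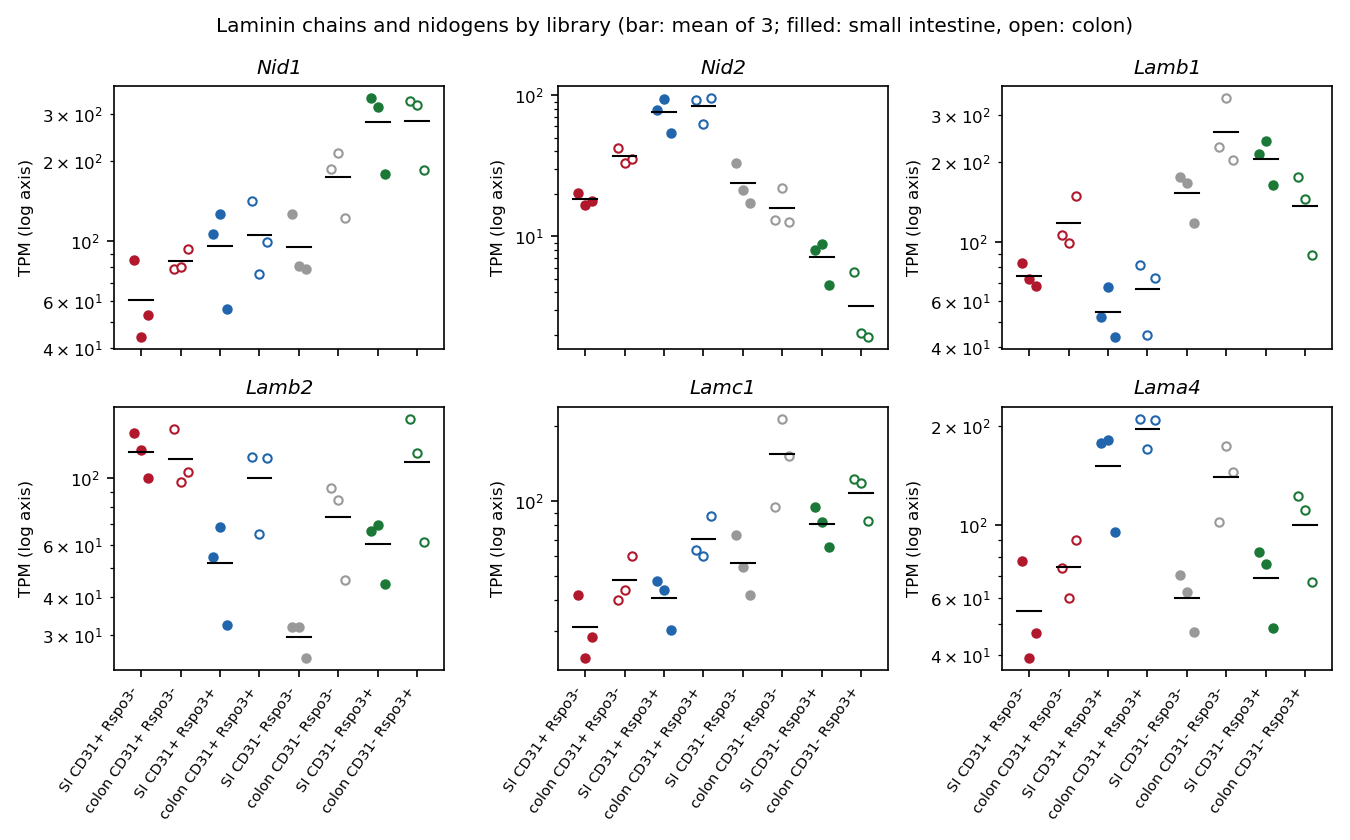
TPM of both nidogens and the laminin chains Lamb1, Lamb2, Lamc1 and Lama4 in each library on a log axis, with filled points for the small intestine, open points for the colon and a bar at the mean of 3 libraries, over the 8 groups. Nid2 is highest in the CD31+ Rspo3+ libraries of both tissues, Nid1 has its highest group means in CD31- Rspo3+ cells, and Lama4 is higher in CD31+ Rspo3+ than in CD31+ Rspo3- libraries of the same tissue.

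The same 4 lists were read among CD31- cells. In this comparison 30.4% of all genes were called in the small intestine (16.1% higher and 14.3% lower). The colonic share was 9.14% (4.8% higher and 4.34% lower). The small-intestinal counts of basement membrane partners and adaptors lay near or below that share of all genes. Of the 16 basement membrane partners, 5 were higher and none lower in small-intestinal Rspo3+ cells, and 2 were higher and 4 lower in the colon. Sparc was 2.30 and Fbln1 2.72 higher in the small intestine, and Col18a1, the endostatin precursor, fell by 1.63 in the colon. Of the 8 genes in the list of other receptors, which includes Ntn4 and Unc5b, 2 were higher and 2 lower in the small intestine. In the colon 1 was higher and 1 lower. Ntn4 rose by 2.63 and 1.16 on the log2 scale, and Unc5b, a netrin receptor, fell by 1.87 and 2.09, each the reverse of its CD31+ direction, where Unc5b was 1.63 and 1.05 higher. Of the 18 ligands, 4 were higher and 3 lower in the small intestine and 3 were higher and none lower in the colon, among them Thbs1 by 1.55 and 1.78 and Icam1, the beta 2 integrin ligand, by 1.68 and 1.41. Of the 25 adaptors, 2 were higher and 4 lower in the small intestine and 3 were higher and 3 lower in the colon.

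The CD31 comparison sets endothelial against other stromal cells of the same reporter sign. CD31+ cells had more Itga6 and Itga1 and less Itga11, Lama2, Itgb5, Lamb1 and Nid1 in all 4 comparisons. Among Rspo3- cells 22 members changed in the small intestine, 9 higher and 13 lower, against 41.6% of all genes (20.1% higher and 21.6% lower). The colonic count was 19, 6 higher and 13 lower, against 32.5% (16.1% higher and 16.4% lower). Among Rspo3+ cells 14 changed in the small intestine, 6 higher and 8 lower, against 36.5% of all genes (16.9% higher and 19.6% lower). The colonic count was 17, 6 higher and 11 lower, against 33.1% (14.9% higher and 18.2% lower). The small-intestinal Rspo3+ count lies near its background share. Summed pan-endothelial markers were at 3097 to 5135 TPM in CD31+ and 25.2 to 147 TPM in CD31- libraries. Other marker lists moved too: 8 of 8 fibroblast markers were lower in CD31+ cells in all 4 comparisons. Of 8 blood endothelial markers, 7 were higher and at most 1 lower among Rspo3- cells of each tissue. Among Rspo3+ cells 1 (small intestine) and 2 (colon) were higher, and 3 lower in each. Of 8 lymphatic markers, 7 and 6 were higher and 1 lower among Rspo3- cells, and all were higher among Rspo3+ cells. Smooth muscle markers were lower for 5 and 6 of 8 among Rspo3- and 7 and 6 among Rspo3+ cells, with at most 1 higher. Among Rspo3- cells 10 of 10 epithelial markers were lower in the small intestine and 8 of 10 in colonic cells, and 7 of 7 enteric glial markers were lower in each tissue. Of 11 leukocyte markers, 7 were lower and 0 higher among colonic Rspo3+ cells. Their part in the member differences was not tested.

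Itga6 was higher in CD31+ cells by 2.57 and 4.38 among Rspo3- cells of the small intestine and colon on the log2 scale, and by 4.40 and 3.33 among Rspo3+ cells, the last value 4.42 without colonic CD31- Rspo3+ library 3. Itga1 was higher by 2.26, 1.61, 1.97 and 2.41 in the same order. Itga11 (chr9:62677826-62783982, plus strand), a collagen receptor chain of fibroblasts, was at 27.9 to 78.1 TPM in CD31- libraries and at 1.09 to 10.3 TPM in CD31+ libraries, with no overlap. It was lower by 3.84, 2.85, 4.95 and 4.14, and 3 libraries moved these values: without small-intestinal CD31+ Rspo3- library 2 the first was -4.58, without colonic CD31+ Rspo3- library 3 the next was -4.45, and without colonic CD31+ Rspo3+ library 1 the last was -4.86. Lama2 was at 36.5 to 107 TPM in CD31- and at 0.948 to 19.4 TPM in CD31+ libraries. It was lower by 3.11, 2.88, 5.46 and 3.69, the value among colonic Rspo3- cells being -3.64 without CD31+ library 3, the library with fibroblast markers. Itgb5 was lower by 1.68, 1.38, 4.90 and 4.06. Nid1 was lower by 0.91, 1.00, 1.76 and 1.70. Its calls among Rspo3- cells were lost without small-intestinal CD31- library 1 (0.0916), CD31+ library 2 (0.0752) or CD31+ library 3 (0.0564), and without colonic CD31+ library 1 (0.0639) or library 2 (0.0588). Whether these differences depend on the reporter sign was not tested.

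Other chains differed by CD31 in fewer of the 4 comparisons or in mixed directions, and the dependence on the reporter sign was not tested for these either. Not every called chain is named here. Lamc1 was lower in CD31+ cells by 1.33 and 1.65 among Rspo3- cells of the small intestine and colon. Among small-intestinal Rspo3+ cells Lamc1 was lower by 1.38. Itgav was lower by 0.96 and 2.01 among Rspo3- cells but 0.92 higher among small-intestinal Rspo3+ cells. Itgb4 was 3.41 higher among colonic Rspo3- cells. Its calls among small-intestinal Rspo3- (1.78) and colonic Rspo3+ cells (1.72) were lost without single libraries. Lama3 was higher in CD31+ than in CD31- cells among Rspo3- cells, by 5.64 in the small intestine (6.50 without CD31- library 3) and 4.47 in the colon. Lama5 was 2.90 ± 0.37 higher among small-intestinal Rspo3- cells (edgeR adjusted p = 3.44e-06). Among colonic Rspo3+ cells Lama5 was 1.17 higher (edgeR adjusted p = 0.0165), a call lost with limma voom (0.066) and without CD31+ Rspo3+ library 1 (0.0789). Nid2 was 3.19 and 4.73 higher among Rspo3+ cells of the small intestine and colon, and 1.34 higher among colonic Rspo3- cells. Itga9 was 2.17 and 1.60 higher among Rspo3+ cells. Itga9 was called in opposite directions among Rspo3- cells, 0.68 in the small intestine and -0.78 in the colon, and both calls were lost without single libraries: in the small intestine without CD31+ library 1 (0.116) or 3 (0.213) and CD31- library 2 (0.154) or 3 (0.134), in the colon without CD31+ library 1 (0.0707) or 2 (0.0673) and CD31- library 2 (0.106). Itgb6 was at 0 counts in small-intestinal CD31+ Rspo3- libraries against 188 in CD31- Rspo3- libraries, at least 45.3-fold lower, taking 3 counts over the group as the floor. Itgb7 was called lower among colonic Rspo3+ cells (-3.35, edgeR adjusted p = 0.0219), but without CD31- Rspo3+ library 3 the value was -0.36 (0.823), and the call was also lost without CD31+ Rspo3+ library 1 (0.0645) or library 2 (0.0659).

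The comparison of colon with small intestine within each sort class gave 2 to 14 called members. Among CD31+ Rspo3- cells 2 members passed, against 4.43% of all genes (2.72% higher and 1.71% lower): Itga8 was lower (-1.46, edgeR adjusted p = 0.0182) and Nid2 higher (1.08, edgeR adjusted p = 0.0348). The Itga8 call was lost without small-intestinal library 2 (0.0668) or colonic library 1 (0.0929) or 2 (0.0889), and the Nid2 call without any of the 6 libraries (0.0525 without colonic library 2 to 0.115 without small-intestinal library 2). Among CD31+ Rspo3+ cells 4 passed, 3 higher and 1 lower in the colon, against 6.35% of all genes (2.83% higher and 3.52% lower). Lama5 was 2.96 ± 0.40 higher (edgeR adjusted p = 8.8e-05, and 3.99 without small-intestinal library 1), while Itga8 was -2.86 ± 0.39 (edgeR adjusted p = 9.3e-05). Blood endothelial markers moved with this class too: 3 of 8 were higher in the colon, and their sum was 507 to 941 TPM there against 235 to 354 TPM in the small intestine, and their part was not tested. Itgb4 was 2.94 higher (edgeR adjusted p = 0.0116), a call lost without colonic library 1 (1.94, adjusted p = 0.104) or small-intestinal library 1 (0.0701) and with limma voom (0.069).

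Among CD31- Rspo3- cells 14 members differed between the tissues, 11 higher and 3 lower in the colon, against 17.6% of all genes (8.79% higher and 8.81% lower). Lama5 was 2.26 ± 0.36 (edgeR adjusted p = 0.000161), Itga5 1.33 ± 0.31 (edgeR adjusted p = 0.00462), Lamb2 1.18 ± 0.28 (edgeR adjusted p = 0.00516), Itga1 0.93 ± 0.20 (edgeR adjusted p = 0.00304) and Itgb1 0.64 ± 0.14 (edgeR adjusted p = 0.0033) higher. The 8 calls of Itga2b, Itga3, Itga9, Itgam, Itgav, Lama4, Lamc1 and Nid2 each ended without at least 1 library. Leaving out colonic library 2 ended 7 of these 8 calls (adjusted p from 0.0505 for Itga3 to 0.331 for Lamc1), and the Nid2 call ended without small-intestinal library 1 (0.139) or colonic library 1 (0.0611) or library 3 (0.131). Of epithelial markers 2 of 10 were lower and of smooth muscle markers 6 of 8 higher in the colonic libraries, and their part was not tested. Among CD31- Rspo3+ cells 6 passed, 3 higher and 3 lower, against 7.02% of all genes (3.62% higher and 3.4% lower). Nid2 was -1.36 (edgeR adjusted p = 0.00694), and that call was lost only when the compared libraries alone were fitted (0.0674). Itga6 was 2.16 higher (edgeR adjusted p = 0.00396), but 1.06 without colonic library 3 (0.0407), and the call was lost with limma voom (0.0784) and with only the compared libraries (0.101). The calls of Itga1, Itga8 and Lamb2 ended without single libraries, at adjusted p up to 0.0764 for Itga1 (without colonic library 2), 0.216 for Itga8 (without small-intestinal library 2) and 0.202 for Lamb2 (without colonic library 1).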

How the data were processed

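The data are bulk RNA-seq of 24 sorted stromal cell libraries, 3 in each of 8 groups. The labels' protocols name Qiagen RNeasy for RNA extraction and SMART-Seq v4 for the libraries. The authors deposited estimated counts per gene, as whole numbers, and log2(TPM + 1) values, with Salmon 1.3.0, R 4.0.1 and build mm10, per the submitters' processing notes. The transcript annotation and how transcripts were summed per gene were not given in the sources used here. Levels in the text are TPM, 2 to the power of the deposited log2 value minus 1. TPM is scaled to transcript length and counts are not, so their ratios can differ. Of the gene identifiers, 54166 of 54418 (99.5%) were found in GENCODE M21 on GRCm38, which gave coordinates and exon overlaps.

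Members were taken by symbol, and 1 that is part of the counts is not reported here. The members and the lists were chosen with earlier results of these data known. With filterByExpr of edgeR, at a minimum count of 10 and a minimum total of 15, 19050 genes were kept. These were scaled by TMM and fitted over all 24 libraries with edgeR 4.0.16 (quasi-likelihood test, R 4.3.3). P-values were adjusted by Benjamini-Hochberg over all genes tested, with a threshold of 0.05. The 12 pairwise comparisons and 2 interaction terms were read from this fit. The common biological coefficient of variation was 0.429. The text names the called members by role, but in the CD31 comparison some called members are counted and not named. It also names at most 3 genes of each of 4 lists in a comparison, by smallest adjusted p, and Pecam1 and Rspo3. On simulated counts for the small-intestinal CD31+ reporter comparison (14653 genes, 200 changed), 16% of 2-fold and 61% of 4-fold changes were recovered and 4.94% of 81 calls were false. The simulation fitted these 2 groups alone and not all 24 libraries. It also changed a smaller share of genes than the 20.1% called in the data, so recovery in the reported fit can differ. Alternatives were DESeq2 size factors, DESeq2 1.42.0, limma 3.58.1 voom, no filter, only the compared libraries, and each library left out in turn. No 2 libraries of a group matched within sampling noise (chi-square per degree of freedom at least 27.2). Sequences are from RefSeq on GRCm38.p6.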

Additional observations from a re-analysis of the deposited data

Results flagged for a closer look

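The reporter difference itself differed between colon and small intestine for 6 tests of members, each by the interaction term of edgeR's quasi-likelihood fit, with 3 libraries in each of the 4 groups. Among CD31+ cells this was Lama5, whose colonic log2 fold change was higher than the small-intestinal value by 2.731 (adjusted p = 0.00624), and by 3.76 without small-intestinal CD31+ Rspo3+ library 1. Among CD31- cells, against 8.38% of all genes, 5 members passed. Itga1 differed by -1.775 (adjusted p = 0.000657). Itgb1 differed by -0.901 (adjusted p = 0.00765). Itga6 differed by 3.293 (adjusted p = 0.0016) and by 2.20 without colonic CD31- Rspo3+ library 3, the library with high leukocyte markers. That library also held the highest epithelial markers of its group, 1509 TPM against 178 and 45.5 TPM, and their part was not tested. Itgam differed by 7.462 (adjusted p = 0.00572) and by 4.64 without the same library, in which it held 243 of the 262 counts of its group. Itga3 differed by 2.585 (adjusted p = 0.0499), and this call was lost in 9 of the fits that left out a library, at 1.76 (adjusted p = 0.23) without that library.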

How the results depend on the processing

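Of 169 member calls over all comparisons, 116 held in every alternative, 53 were lost in at least 1 and none reversed. Counts of called members moved by more than 1.5 times in the smaller comparisons. For the reporter among colonic CD31- cells the count was 11, with 17 by DESeq2, 7 with only the compared libraries and 6 to 16 when a library was left out. The share of all genes called moved too, from 9.14% to 13.6% by DESeq2 and 7.26% with only the compared libraries. Shares of all genes are not given here for fits that left out a library. For colon against small intestine the count was 2 among CD31+ Rspo3- cells (4 by DESeq2, 1 with only the compared libraries, 0 to 1 without a library), 4 among CD31+ Rspo3+ cells (7 by DESeq2, 3 to 7), 14 among CD31- Rspo3- cells (7 to 12) and 6 among CD31- Rspo3+ cells (12 by DESeq2, 2 with only the compared libraries, 3 to 9). Over all genes the share among CD31+ Rspo3- cells was 4.43% (8.04% by DESeq2, 2.02% with only the compared libraries). Among CD31+ Rspo3+ cells it was 6.35% (9.53% by DESeq2), and among CD31- Rspo3- cells 17.6%. Among CD31- Rspo3+ cells it was 7.02% (10.9% by DESeq2, 7.3% with only the compared libraries). For the tissue difference of the reporter effect the count was 1 among CD31+ cells (1 to 2) and 5 among CD31- cells (10 by DESeq2, 4 to 7). Over all genes the shares were 1.93% and 8.38%, the latter 12.5% by DESeq2. Fits with fewer libraries have fewer degrees of freedom, and otherwise the cause was not tested. With DESeq2 size factors the colon against small intestine split among CD31- Rspo3+ cells went from 3 higher and 3 lower to 4 and 2, and the median tissue difference of all genes among CD31- cells went from -0.12 to 0, with 70.0% in place of 58.5% of called genes higher. The highest group by TPM was kept for 26 to 30 of 30 members when a library was left out. No paired analysis was possible because the columns of the tables carry no replicate numbers. Depth limits the members below 5 TPM. In simulated counts of 2 groups fitted alone, 3 libraries a group recovered few 2-fold changes, and recovery in the fit over 24 libraries was not simulated.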

Other observations

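In the 3 colonic CD31- Rspo3+ libraries Lama3 was at 0.0452 to 0.257 TPM and Lamb3 at 0.303, 0.0933 and 6.42 TPM. The highest Lamb3 value was in library 3, which also held the highest epithelial markers of its group, 1509 TPM against 178 and 45.5 TPM. Laminin beta chains also differed by class: Lamb2 made up 61.7% ± 2.16 (SD, n = 3) of laminin beta TPM in small-intestinal CD31+ Rspo3- cells and 16.2% ± 1.05 in small-intestinal CD31- Rspo3- cells. In the same colonic library 3 the leukocyte integrins Itgal, Itga4, Itgax and Itgae were at 6.21, 6.33, 3.50 and 1.87 TPM. Itga4 was not particular to that library: its highest group mean, 4.38 TPM, was in colonic CD31- Rspo3- cells.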
